A study of Arabidopsis thaliana with 12 samples.

Results

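The salt response of Col(gl) leaves was examined in Arabidopsis thaliana by comparing 2 arrays of plants given 100 mM NaCl with 2 arrays of plants given 0 mM, 4 of the 12 arrays of the study. Members were taken from the sample labels, and all 22746 probe sets other than the array's controls entered the comparison. The other 8 arrays carry the genotypes Ws and Col under the same salt levels, with 2 arrays per group. Plants grew on soil, salt was raised in steps to 100 mM with the nutrient solution, and the leaves were harvested from plants aged 20 days that had been on the salt regime for 6 days. Unsalted plants received the nutrient solution alone. The labels give Col(gl) only as a genotype and do not say what (gl) stands for, and the number of plants behind each array is not given. They do not say either whether the replicates came from separate plantings, so p-values measure the spread between these arrays.

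Salt reaches a leaf as an osmotic load and as sodium. Plants answer with abscisic acid signalling, which turns on dehydrins and other late embryogenesis abundant (LEA) proteins that protect dehydrated cells, and with changes in growth, in cell wall loosening and in defence. Chloroplasts carry their own genome, which encodes core subunits of both photosystems, of the ATP synthase and of the plastid's own RNA polymerase and ribosome, and chloroplasts are among the targets of salt in leaves. Calcium sensors and fast transcription factors such as the zinc finger protein STZ are known for rapid, touch- and stress-induced transcripts.

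Values are log2 RMA signals, a background-corrected, normalized and summarised probe brightness. A difference of 1 is therefore a doubling, and signals of different probe sets are not compared with each other. The Col(gl) replicates resembled each other closely, with a correlation across probe sets of 0.9964 without salt and 0.9962 with salt and a pooled replicate SD of 0.137 and 0.144. In the salted Ws and Col groups the replicate SD was 0.353 and 0.297, and in both the array numbered 1 stood apart. The median signal of plastid-encoded genes was 8.73 on that Ws array and 9.48 on that Col array, against 11.22 and 11.37 on their partners. The 3' minus 5' signal of the actin control, a sign of RNA integrity, was 3.70 and 3.68 on those arrays and between 2.17 and 2.69 on the Col(gl) arrays. For the GAPDH control it was 1.36 and 1.00 on those arrays and between 0.98 and 1.05 on the Col(gl) arrays. On the remaining Ws and Col arrays the GAPDH value lay between 0.59 and 0.80. Counts of differences from Ws and Col are given with and without these 2 arrays. Without them, the salted Ws and salted Col groups hold 1 array each, and the spread in those fits comes from the other groups. Tests of single genes use all 12. Where leaving out the 2 arrays changed whether a printed difference passed, that value is given, except for mitochondrial genes. The root marker PYK10 (AT3G09260) read 9.99 and 7.73 on the salted Col arrays and 6.73 and 3.61 on the salted Ws arrays, and between 3.51 and 4.0 on the 8 others, and EXPA7, the other of 2 measured root markers, lay between 4.22 and 4.87 on all 12. The part of root tissue in differences from Col and Ws was not tested. The leaf label was checked against markers. RCA (AT2G39730), which activates Rubisco, read between 13.60 and 13.84 on the 4 arrays, PRK (AT1G32060) of the Calvin cycle between 12.65 and 12.86, and the root glucosidase PYK10 between 3.73 and 3.80, which is below the lower quartile of the arrays (4.36 without and 4.28 with salt). A signal at or below that quartile may be background, and a difference that starts there is a lower bound.

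Of all probe sets, 1338 (5.88%) differed between salted and unsalted Col(gl) leaves at an adjusted p under 0.05 (limma on the 4 arrays, Benjamini-Hochberg over all 22746). Signals were higher with salt for 773 (3.4%) and lower for 565 (2.48%). In whole leaves, fewer cells of a type and less RNA per cell cannot be told apart. Most of the differences were small. In size, 212 lay under 0.5 on the log2 scale, 925 between 0.5 and 1, 170 between 1 and 2 and 31 above 2, with a median of 0.64 and a largest value of 3.81, higher with salt, on a probe set with no gene name in the platform table. For 670 of them the platform names a single gene, 386 higher and 284 lower. Tested on simulated data, the same fit recovered 0% of changes of 0.5, 76% of changes of 1 and 100% of changes of 2. Only 50 of the 22746 simulated probe sets were changed at each size. The adjusted threshold is stricter with so few changes than on the real arrays, so these shares do not give the recovery there. With 2 arrays per group the count depended on each array: it was 883 and 1564 without unsalted array 1 or 2, and 123 and 156 without salted array 1 or 2, and 117 probe sets were called in all 4 of these fits. When the spread was estimated from all 12 arrays, 339 were called, of which 337 were among the 1338. Of 64 named genes called, 34 remained called when any single array was left out, and 33 with the spread of all 12 arrays. The 30 that lost the call in at least 1 of the fits with an array left out include SIR, APS3, BGLU28, BCAT4, CHI, BSMT1, ALDH7B4, EXLA2, STZ, CML38, WRKY22, WRKY47, SAPX, LHCB4.3, UF3GT, BHLH101, COR27, ATG8B, GSTU27 and the glycosyltransferases UGT71B6, UGT76E12, UGT85A2 and UGT87A2, all described below.

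The named nuclear genes with the largest rise were led by AT3G02480. It read 4.39 and 4.31 without salt and 7.36 and 7.87 with salt, a difference of 3.26 ± 0.17 (SE, n = 2 arrays per group, 9.60-fold, adjusted p = 0.00092). The unsalted signal was at the lower quartile, so this is a lower bound. The groups did not overlap, and it remained called when any single array was left out. XTH19 (AT4G30290), a xyloglucan endotransglucosylase/hydrolase that cuts and rejoins cell wall xyloglucan, read 6.03 and 5.96 without salt and 8.58 and 8.73 with salt (2.66 ± 0.10, 6.33-fold, adjusted p = 0.00048). AT2G37870 rose by 2.66 ± 0.11, from 5.49 and 5.55 to 8.29 and 8.07. AT1G47400 rose by 2.50 ± 0.12, AT5G05250 by 2.35 ± 0.13 and AT1G09500 by 2.25 ± 0.15, each with both salted arrays above both unsalted ones, and all 4 remained called when any single array was left out. AT3G02480 and these 4 loci carry no gene name in the tables used here. The other 9 of the 15 largest named rises were plastid-encoded genes.

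**Figure D1:**
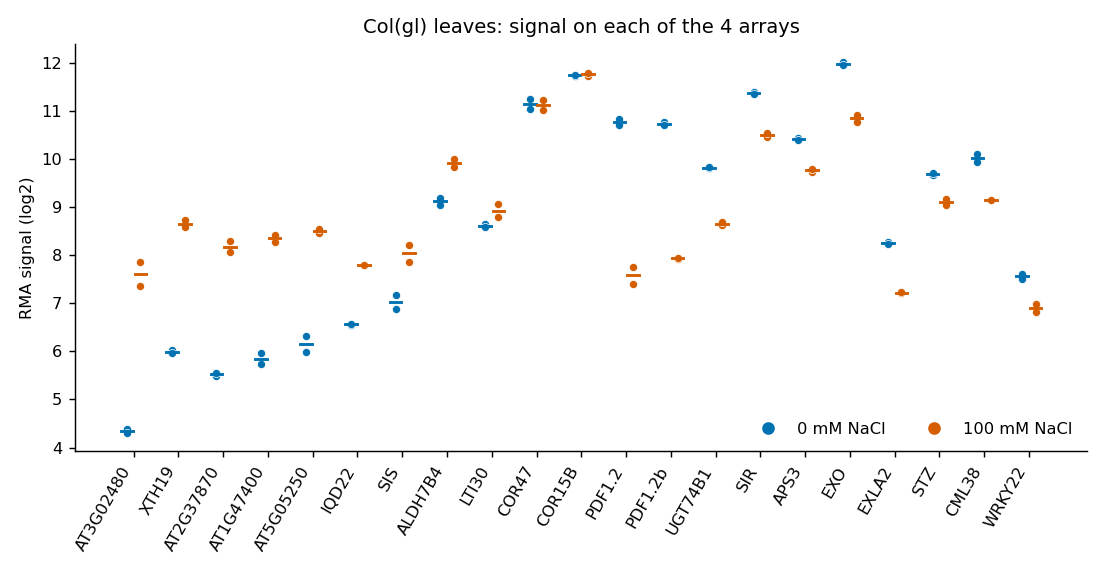
RMA signal (log2) of 21 named genes on the 4 Col(gl) arrays, with blue points for the 2 unsalted arrays, orange points for the 2 salted arrays and a line at each mean. AT3G02480, XTH19 and the genes up to ALDH7B4 lie higher with salt, COR47 and COR15B overlap, and the genes from PDF1.2 on lie lower.

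None of the 5 dehydration genes counted here was called in Col(gl), and AT3G02480, described above, was not among them. Of 5 measured members of the abscisic acid and dehydration list (29 listed), 0 were called by limma in either direction, against 5.88% of all probe sets, and 1, LTI30 (AT3G50970), had an unadjusted p under 0.05, as 24.5% of all probe sets did. With an intensity trend and robust prior LTI30 was called higher. Their median difference was 0.02, and over all 13286 genes it was -0.03. The dehydrin LTI30 read 8.65 and 8.58 without salt and 8.79 and 9.06 with salt (0.31 ± 0.12, adjusted p = 0.17). COR47 (AT1G20440), another dehydrin, read 11.26 and 11.05 without salt and 11.02 and 11.23 with salt, with the groups overlapping. COR15B (AT2G42530), whose product protects chloroplast membranes during freezing, stayed between 11.72 and 11.80 on all 4 arrays, and COR15A (AT2G42540) between 12.22 and 12.45. LEA4-5 (AT5G06760), a LEA protein, read 5.47 and 5.02 without salt and 5.17 and 5.46 with salt. The same 5 genes had a median salt difference of 1.90 in Col and 2.18 in Ws, and of 1.85 and 2.47 when the salted arrays that stand apart were left out.

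That gap was tested as a difference of salt responses in a fit of all 12 arrays, which called 3947 probe sets (17.4%) between Col(gl) and Col and 1415 (6.22%) between Col(gl) and Ws. Without the 2 arrays that stand apart, the counts were 5468 (24.0%) and 2591 (11.4%). The response of LTI30 was smaller in Col(gl) by 4.43 ± 0.45 than in Col (adjusted p = 0.00027) and by 2.34 ± 0.45 than in Ws (adjusted p = 0.016). COR15B and LEA4-5 differed from both genotypes, and COR47 and COR15A passed the test against Ws but not against Col (adjusted p = 0.091 and 0.095). Without the 2 arrays, the difference for COR47 against Col was -1.59 with an adjusted p of 0.0002, and for COR15A -0.76 with an adjusted p of 0.025. Levels without salt also differed between genotypes. LTI30 averaged 8.62 in unsalted Col(gl), 6.02 in unsalted Col and 4.47 in unsalted Ws, and COR15B averaged 11.74, 9.20 and 7.61. In salted leaves COR15B averaged 11.76 in Col(gl), 11.10 in Col and 9.11 in Ws, so its unsalted level in Col(gl) lay above the salted level of the other genotypes.

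ALDH7B4, SIS and IQD22 rose. ALDH7B4 (AT1G54100), an aldehyde dehydrogenase of osmotic stress, read 9.19 and 9.05 without salt and 9.83 and 10.00 with salt (0.80 ± 0.11, adjusted p = 0.017). It was the only called member of 8 measured aldehyde dehydrogenases, beside 5.88% of all probe sets. SIS (AT5G02020), named for a salt-induced serine-rich protein, rose by 1.01 ± 0.16, from 6.88 and 7.18 to 8.22 and 7.86. IQD22 (AT4G23060), of a family of calmodulin-binding proteins, read 6.55 and 6.57 without salt and 7.80 on both salted arrays (1.24 ± 0.09, adjusted p = 0.0021). Its response was -0.12 in Col and -0.31 in Ws. SIS and IQD22 were chosen after their values were seen. The call of SIS was lost in 2 of the 4 fits with an array left out, and that of IQD22 in 0. The 0.80 of ALDH7B4 compared with 1.17 in Col and 2.12 in Ws. Its response was smaller than in Ws (difference of -1.32, adjusted p = 0.043), and against Col the test was passed only without the 2 arrays that stand apart (-0.69, adjusted p = 0.022).

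The largest falls among named genes were in plant defensins, small antifungal peptides whose transcripts mark the joint jasmonate and ethylene pathway. PDF1.2 (AT5G44420) read 10.83 and 10.70 without salt and 7.41 and 7.76 with salt, a difference of -3.18 ± 0.14 (9.09-fold, adjusted p = 0.00049). PDF1.2b (AT2G26020) read 10.77 and 10.71 without salt and 7.93 and 7.94 with salt (-2.80 ± 0.09, 6.99-fold). The coding sequences of these 2 genes are close to identical, so their probe sets may share signal and are not independent. Both remained called when any single array was left out. The other 2 measured members of the jasmonate and ethylene list (4 measured of 26) were not called, JMT at 0.20 ± 0.13 and THI2.1 at -0.19 ± 0.17. PDF1.2 also fell in Col (-3.73), and the difference between these responses did not pass the test (0.54, adjusted p = 0.12). Against Ws, where it fell by 1.16, the fall in Col(gl) was larger by 2.03 on the log2 scale (adjusted p = 0.00073).

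In salicylate defence, 1 of 3 measured genes was called, beside 5.88% of all probe sets. BSMT1 (AT3G11480), which methylates salicylate and benzoate, rose from 3.79 and 3.80 to 4.47 and 4.34. Its unsalted signal lay below the lower quartile, so 0.61 is a lower bound. WRKY53 at -0.26 ± 0.10 and GRX480 at -0.33 ± 0.12 were not called. The chitinase CHI (AT2G43570), an enzyme that degrades fungal cell walls, fell from 8.22 and 8.11 to 7.39 and 7.63 (-0.65 ± 0.12, adjusted p = 0.034), while in Ws it read 3.19 higher with salt. That difference of responses was -3.84 (adjusted p = 0.0015). In Col it differed by -0.80, and the difference of 0.14 did not pass the test (adjusted p = 0.87).

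In sulfur assimilation 2 genes fell, as did 2 of the synthesis of glucosinolates, the sulfur-rich defence compounds of the cabbage family. SIR (AT5G04590), the sulfite reductase of sulfate assimilation, read 11.39 and 11.35 without salt and 10.45 and 10.54 with salt (-0.88 ± 0.09, adjusted p = 0.0074). APS3 (AT4G14680), an ATP sulfurylase that activates sulfate, read 10.43 and 10.40 without salt and 9.73 and 9.80 with salt (-0.65 ± 0.09, adjusted p = 0.018). The glucosidase BGLU28 (AT2G44460), known from sulfur starvation, rose from 3.85 and 3.91 to 4.44 and 4.46, with the unsalted signal below the lower quartile. All 3 measured members of the sulfur list (24 listed) were thus called, 1 higher and 2 lower, beside 5.88% of all probe sets. APS3 read 0.03 higher with salt in Col and 0.37 higher in Ws, and its response in Col(gl) differed from both (adjusted p = 0.033 and 0.011). The response of SIR differed from Ws (-0.83, adjusted p = 0.017) and did not pass the test against Col (-0.21, adjusted p = 0.42).

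Among 4 measured glucosinolate genes (34 listed), 2 fell and all 4 lay below 0. Of all probe sets 2.48% fell, and 7370 of all 13286 genes lay below 0. UGT74B1 (AT1G24100), the glucosyltransferase of the glucosinolate core, read 9.81 and 9.83 without salt and 8.62 and 8.70 with salt (-1.16 ± 0.09, 2.23-fold, adjusted p = 0.0028). Its response was lower than in Col by 0.66 (adjusted p = 0.0077) and lower than in Ws by 0.75 (adjusted p = 0.0083). BCAT4 (AT3G19710), which starts the chain elongation of methionine, fell as well (-0.50 ± 0.09, adjusted p = 0.033), and this call was lost whenever any single array was left out. AOP3 at -0.16 ± 0.11 and GSTU20 at -0.13 ± 0.09 were not called.

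**Figure D2:**
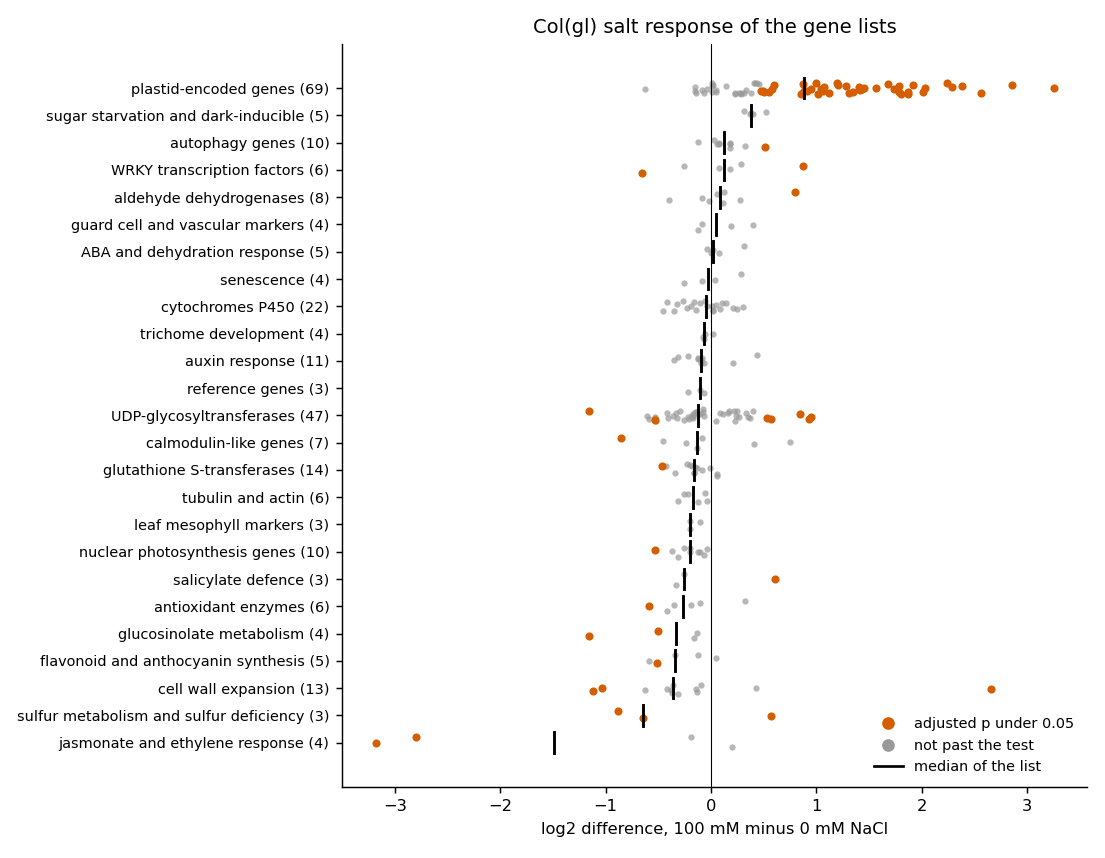
Log2 difference between salted and unsalted Col(gl) leaves for each measured gene of the lists with at least 3 measured members, with the number measured in brackets, orange points for genes past the test, grey points for the others and a black line at the list's median. The plastid-encoded genes have a median of 0.88 and the jasmonate and ethylene list a median of -1.50, while the abscisic acid and dehydration list sits at 0.02.

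Most measured cell wall genes read lower with salt. Of 13 measured members of the cell wall expansion list (31 listed), 11 lay below 0, as did 7370 of all 13286 genes. Their median was -0.36. By limma 1 rose, 2 fell and 10 were not called, where 3.4% of all probe sets rose and 2.48% fell. The 1 that rose was XTH19, described above. At an unadjusted p under 0.05, 2 were higher and 8 lower, against 13.0% and 11.5% of all probe sets. With an intensity trend and robust prior, which called 14.8% of all probe sets, 2 were called higher and 7 lower. EXO (AT4G08950), an extracellular protein of brassinosteroid-promoted growth, read 12.01 and 11.95 without salt and 10.92 and 10.78 with salt (-1.12 ± 0.10, adjusted p = 0.004). EXLA2 (AT4G38400), an expansin-like protein, read 8.28 and 8.24 without salt and 7.21 and 7.24 with salt (-1.04 ± 0.09, adjusted p = 0.0038). The calls of EXO were lost when the spread came from 8 or 12 arrays, and that of EXLA2 was lost in 1 of the fits with an array left out. EXO rose with salt in Col by 4.12 and in Ws by 2.58, and the difference of responses was -5.25 against Col (adjusted p = 1.5e-05) and -3.70 against Ws (adjusted p = 0.00025). Outside the list, and chosen after their values were seen, the expansin EXPA9 (AT5G02260) rose by 0.83 ± 0.09 from 7.05 and 7.08 to 7.84 and 7.94. EXPB1 (AT2G20750) fell from 6.36 and 6.04 to 5.37 and 5.30, and XTH32 (AT2G36870) fell from 9.31 and 9.24 to 8.47 and 8.57. The calls of these 3 genes were each lost in 2 of the 4 fits with an array left out.

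Plastid-encoded genes were the group with the most calls. Of 69 measured (84 listed), 43 were higher with salt and 0 were lower by limma, with a median difference of 0.88. At an unadjusted p under 0.05, 52 were higher and 1, rpl36, was lower, against 13.0% and 11.5% of all probe sets. The background for a called rise was 3.4% of all probe sets. Their median signal was 10.34 and 10.35 on the unsalted arrays and 11.56 and 11.58 on the salted ones. In unsalted Col it was 11.54 and 11.39 and in unsalted Ws 11.77 and 11.78, so the unsalted Col(gl) arrays were the lowest of the unsalted groups and the salted ones lay in the range of unsalted Col and Ws. The actin 3' minus 5' signal was 2.69 and 2.47 without salt and 2.17 and 2.66 with salt, overlapping between the groups. For the GAPDH control it was 1.02 and 1.05 without salt and 0.98 and 0.99 with salt, without overlap. The part of RNA integrity in the plastid differences was not tested. The leaf markers RCA, PRK and SBPASE differed by -0.20, -0.11 and -0.20, none called.

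The ATP synthase, which makes ATP from the proton gradient of the thylakoid, held the largest rises, with 4 of 6 genes higher and a median of 1.87. Its membrane ring subunit atpH read 8.91 and 8.54 without salt and 12 and 11.96 with salt (3.25 ± 0.14, 9.52-fold, adjusted p = 0.00049). The neighbouring atpF rose by 2.86 ± 0.11, atpI by 2.29 ± 0.10 and atpA by 1.45 ± 0.09. The subunits atpB and atpE, which lie apart from that cluster, read 0.42 and 0.44 higher with adjusted p-values of 0.053 and 0.055. Both were bright without salt, between 13.36 and 13.47. The median unsalted signal was 8.9 for the 43 plastid genes called higher and 11.88 for the 26 not called. The part of signal level in these calls was not tested. In the annotation order (RefSeq, TAIR10.1), atpA, atpF, atpH, atpI, rps2, rpoC2, rpoC1 and rpoB follow each other, and all 8 rose. The neighbours psbJ, psbL, psbF and psbE, small subunits of photosystem II, lay between -0.15 and -0.07, and none was called.

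Photosystem I had 4 of 5 genes higher. Its core subunit psaA read 9.74 and 9.75 without salt and 12.31 on both salted arrays (2.56 ± 0.09, 5.91-fold), and its partner psaB rose by 0.88 ± 0.10. In photosystem II 7 of 15 genes rose, with a median over the 15 of 0.41. The core and inner antenna proteins psbD, psbC and psbB rose by 1.78, 1.56 and 1.43, and psbA, which encodes the D1 protein, rose from 10.28 and 10.16 to 11.14 and 11.12. The cytochrome b6f complex had 3 of 6 genes higher, led by petL (1.06 ± 0.11), and the NADH dehydrogenase-like complex 7 of 10, led by ndhK (2.03 ± 0.09). For gene expression in the plastid, 3 of 4 RNA polymerase subunits and 7 of 15 ribosomal proteins rose. Of these, rpl16 read 8.93 and 8.87 without salt and 11.09 and 11.18 with salt (2.24 ± 0.09). The RNA polymerase subunit rpoA was not called, its salted arrays reading 12.61 and 11.94. The other 8 genes all rose, among them rbcL, the large subunit of Rubisco, from 8.95 and 8.78 to 10.63 and 10.94 (1.92 ± 0.13). Within the same group, accD of fatty acid synthesis rose by 2.38 ± 0.10 and the protease subunit clpP by 1.01 ± 0.10.

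**Figure D3:**
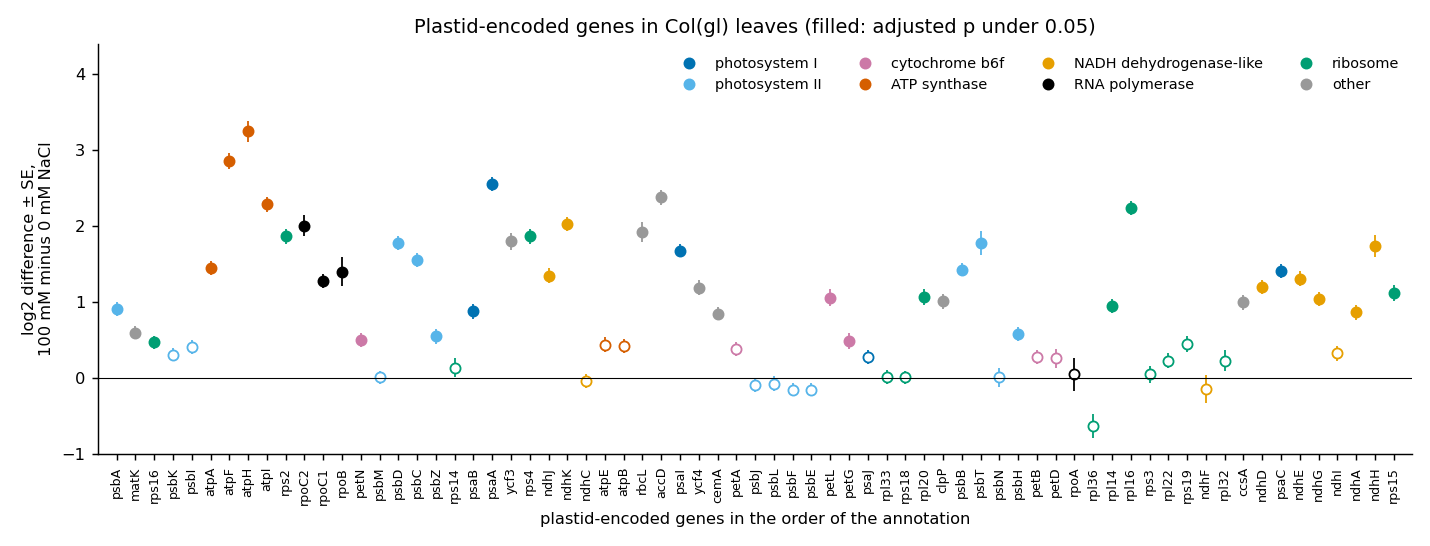
Log2 difference between salted and unsalted Col(gl) leaves (± SE of the fit, 2 arrays per group) for 69 plastid-encoded genes in annotation order, coloured by complex, with filled points for genes past the test. The stretch from atpA to rpoB lies at or above 1.28, and psbJ to psbE lie between -0.15 and -0.07.

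The number of plastid genes called depended on which arrays set the spread. It was 43 in the 4-array fit, between 25 and 40 rises with any single array left out, and 2 when the spread was estimated from all 12 arrays or from the 8 of Col(gl) and Col, whose replicates differed in these genes. For psaA the salted Col arrays read 4.58 and 12.31, and the salted Ws arrays 4.27 and 11.22. The median difference was between 0.87 and 0.92 in the fits with an array left out.

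In a direct test of the difference of responses, 5 of 69 plastid genes passed against Col (17.4% of all probe sets did) and 11 against Ws (6.22%), all with the larger response in Col(gl). Without the 2 arrays that stand apart, 33 passed against Col (24.0% of all) and 50 against Ws (11.4%). Leaving out 1 array at a time gave 0 to 37 against Col, with 0 whenever a Col(gl) array or unsalted Col array 1 was left out and 37 without salted Col array 2. Against Ws it gave 3 to 52, with 52 without salted Ws array 2. Each fit without the 2 arrays leaves 1 salted Col and 1 salted Ws array, so it holds no replicate spread for those groups. Low signal of these same plastid genes was part of why the 2 arrays were set apart. The median difference of responses was 1.34 against Col with all arrays and 0.51 without the 2, and 2.02 and 1.33 against Ws. For psaA the difference against Ws was 6.87 with an adjusted p of 0.29 with all arrays, and 3.40 without the 2. Against Ws, rpl16 (4.24, adjusted p = 0.00066) and rps2 (3.28, adjusted p = 0.02) passed with all arrays. Their differences without the 2 arrays were 4.07 and 2.57.

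**Figure D4:**
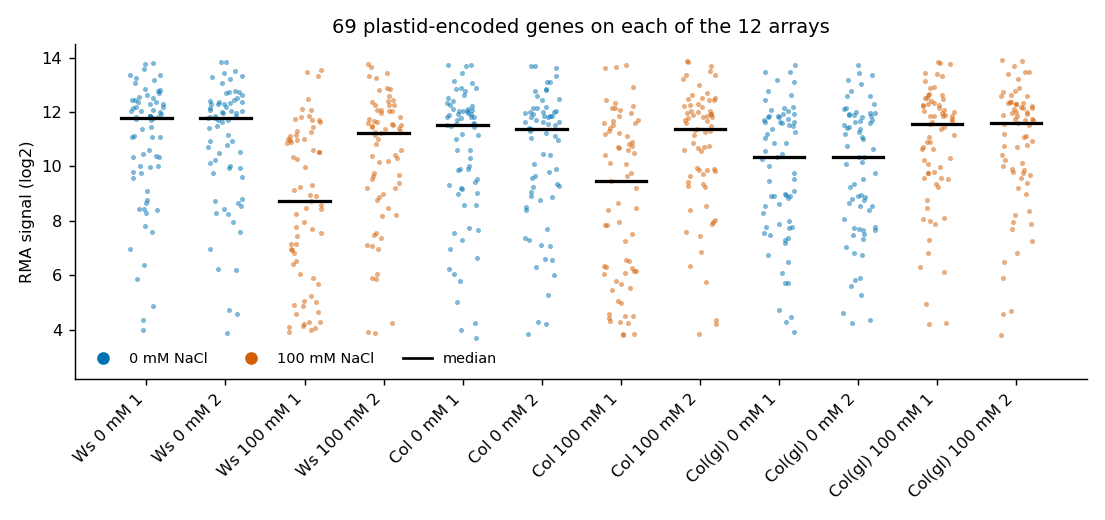
RMA signal (log2) of the 69 plastid-encoded genes on each of the 12 arrays, named by genotype, NaCl and replicate number, with blue for 0 mM, orange for 100 mM and a black line at each array's median. Both unsalted Col(gl) medians lie near 10.3 and both salted ones near 11.6, while salted Ws and Col arrays numbered 1 lie at 8.73 and 9.48.

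No measured photosynthesis gene of the nucleus rose. Of 10 measured (46 listed), 0 rose and 1 fell by limma, beside 3.4% and 2.48% of all probe sets. At an unadjusted p under 0.05 these counts were 0 and 4 (13.0% and 11.5% of all probe sets). With an intensity trend and robust prior, which called 14.8% of all probe sets, 0 were called higher and 5 lower. All 10 lay below 0, as did 7370 of all 13286 genes, and the median was -0.20. LHCB4.3 (AT2G40100), a minor antenna protein of photosystem II, read 11.62 and 11.68 without salt and 11.10 and 11.13 with salt (-0.53 ± 0.09, adjusted p = 0.03). That call was lost when any single array was left out. The photosystem I subunits PSAN and PSAE-1 lay at -0.37 and -0.26, and ATPC1, the nuclear-encoded gamma subunit of the same ATP synthase, at -0.04 ± 0.09.

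Of the enzymes that remove hydrogen peroxide in the chloroplast, 1 fell. SAPX (AT4G08390), the stromal ascorbate peroxidase, read 9.64 and 9.61 without salt and 9.07 and 9.01 with salt (-0.59 ± 0.09, adjusted p = 0.023), and its thylakoid counterpart TAPX lay at -0.42 ± 0.09 (adjusted p = 0.053). SAPX was the 1 called member among 6 measured antioxidant genes (30 listed), beside 5.88% of all probe sets. VTC4 (AT3G02870), an enzyme of ascorbate synthesis outside the list and chosen after its value was seen, fell too (-0.57 ± 0.09), a call lost in 3 of the 4 fits with an array left out. Of 5 measured flavonoid and anthocyanin genes (22 listed), UF3GT (AT5G54060), an anthocyanin glycosyltransferase, fell from 7.49 and 7.48 to 6.91 and 7.04. The other 4 were not called, where 5.88% of all probe sets were, and DFR, an early enzyme of the anthocyanin branch, lay at 0.05 ± 0.10.

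STZ, CML38 and WRKY22 fell in Col(gl) while their salt response was positive in Col and Ws. STZ (AT1G27730), a zinc finger repressor known for salt tolerance, read 9.66 and 9.71 without salt and 9.18 and 9.04 with salt (-0.57 ± 0.10, adjusted p = 0.032). Its response was 4.65 in Col and 3.13 in Ws, and the differences of -5.22 and -3.70 passed the test (adjusted p = 0.00012 and 0.0018). CML38 (AT1G76650), a calmodulin-like calcium sensor and the 1 called member of 7 measured, read 9.93 and 10.10 without salt and 9.15 on both salted arrays (-0.86 ± 0.10), against a response of 3.65 in Col and 2.15 in Ws. WRKY22 (AT4G01250), a transcription factor of the immune response, read 7.62 and 7.50 without salt and 6.81 and 6.99 with salt (-0.66 ± 0.11), against 3.07 in Col and 0.80 in Ws. The differences for CML38 and WRKY22 passed against both genotypes. The other 6 measured calmodulin-like genes were not called, where 5.88% of all probe sets were, with CML41 at 0.75 and CML30 at 0.41.

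Loci with no function given in the tables also showed opposite directions. AT4G29780 read 7.77 and 7.69 without salt and 6.66 and 6.64 with salt, and its response of -1.08 ± 0.09 lay 6.22 below that of Col (adjusted p = 2.4e-07). AT1G04770 read 8.19 and 8.13 without salt and 5.83 and 6.12 with salt (-2.18 ± 0.12, 4.54-fold), the largest named fall after the defensins, and it rose by 1.81 in Col and 1.50 in Ws. AT2G27080 fell by 1.26, AT1G76600 by 1.25, AT2G41640 by 1.37, AT4G37240 by 1.37, AT4G24380 by 1.39 and AT3G23170 by 1.75, and each had a positive response in both other genotypes. All of these differences passed the test against Col and against Ws, also without the 2 arrays that stand apart. AT1G13650 had a negative response in all 3 genotypes (-1.59 in Col(gl), -2.28 in Col and -0.64 in Ws). The response in Ws was not called (adjusted p = 0.1). The difference from Ws was -0.95 with all arrays (adjusted p = 0.051) and -1.07 without the 2 that stand apart. AT5G59400 lay at -1.85 in Col(gl), -1.23 in Col and -0.05 in Ws, the last without a call (adjusted p = 0.90). Its response differed from Ws by -1.80 (adjusted p = 0.022) and from Col only without the 2 arrays that stand apart (-1.08, adjusted p = 0.0024). The other 5 of the 15 largest named falls, AT3G43670, AT1G68650, AT2G36885, AT1G57590 and AT5G01790, lay between -1.57 and -1.26 in Col(gl).

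Unsalted levels of these genes were not alike in the genotypes. CML38 read 9.93 and 10.10 in unsalted Col(gl), against 5.50 and 5.59 in unsalted Col and 9.26 and 9.12 in salted Col. EXO averaged 11.98 in unsalted Col(gl) and 6.06 in unsalted Col, and its salted means were 10.85 and 10.18. STZ averaged 9.68 in unsalted Col(gl), 6.12 in unsalted Col and 4.79 in unsalted Ws. The salted means of STZ in Col(gl), Col and Ws were 9.11, 10.77 and 7.92. AT1G04770 went against this, with unsalted means of 8.16 in Col(gl), 8.11 in Col and 8.70 in Ws and salted means of 5.97, 9.93 and 10.21. For AT3G23170 the unsalted means also lay closer together, at 6.17 in Col(gl), 5.81 in Col and 5.65 in Ws. Its salted means were 4.42, 7.48 and 6.51.

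**Figure D5:**
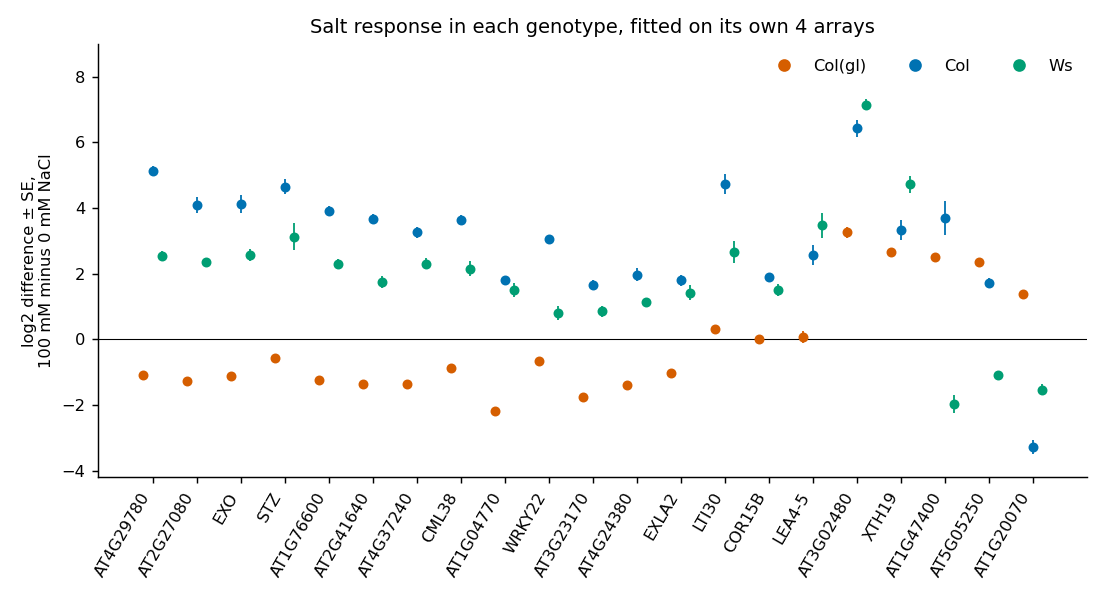
Salt response (log2 difference, 100 mM minus 0 mM NaCl, ± SE) of 21 named genes in Col(gl) (orange), Col (blue) and Ws (green), each fitted on that genotype's own 4 arrays. The genes from AT4G29780 to EXLA2 lie below 0 in Col(gl) and above 0 in Col and Ws, LTI30 to LEA4-5 lie near 0 in Col(gl) alone, and AT1G20070 lies above 0 in Col(gl) alone.

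In the opposite sense, AT1G20070 rose in Col(gl) from 5.68 and 5.78 to 7.04 and 7.19 (1.38 ± 0.10), while its response was -3.28 in Col and -1.53 in Ws. The difference was 4.66 against Col (adjusted p = 7.5e-06) and 2.91 against Ws (adjusted p = 0.00019). AT1G47400 and AT5G05250 shared their direction with Col (3.70 and 1.72) and not with Ws (-1.97 and -1.08). Over all calls, each genotype fitted on its own arrays, 252 of the 773 probe sets higher in Col(gl) were also called higher in Col, 32.6% of that list and 8.42% of the 2992 of Col, and 86 were called lower there (11.1%). Of all probe sets, 13.2% were called higher and 13.7% lower in Col, and 2.83% and 0.976% in Ws. Of the 565 lower in Col(gl), 205 were called lower in Col (36.3%, and 6.57% of the 3119 of Col) and 145 higher (25.7%). In Ws, 106 of the 773 were called higher (13.7%, and 16.5% of the 643 of Ws) and 21 lower (2.72%), and 70 of the 565 were called higher (12.4%) against 24 lower (4.25%). These counts were not tested.

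Smaller rises were found in an iron regulator and in UDP-glycosyltransferases, which attach sugars to hormones and other small molecules. BHLH101 (AT5G04150), a transcription factor of the iron deficiency response, rose from 4.05 and 3.97 to 5.07 and 4.91 (0.98 ± 0.10, adjusted p = 0.0071), a lower bound because the unsalted signal was below the lower quartile. PYE, another iron regulator, read 5.50 and 5.70 without salt and 6.37 and 5.91 with salt and was not called. Of 47 measured UDP-glycosyltransferases (58 listed), 5 rose, 2 fell and 40 were not called, beside 3.4% and 2.48% of all probe sets. UGT71B6 (AT3G21780), which glucosylates abscisic acid, read 5.24 and 4.84 without salt and 6.15 and 5.83 with salt (0.95 ± 0.17, adjusted p = 0.035). UGT76E12 (0.93, from a dim unsalted signal), UGT87A2 (0.84), UGT85A2 (0.57) and UGT85A4 (0.53) were the other rises. UGT84A4 fell by 0.53 on the log2 scale, and UGT74B1 was the other fall. UGT85A4 and UGT84A4 were named after their values were seen, and their calls were lost in 4 and 3 of the 4 fits with an array left out.

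Single members of other lists passed the test, which 5.88% of all probe sets did. WRKY47 (AT4G01720) rose from 6.01 and 6.32 to 7.09 and 6.98 (0.87 ± 0.13), and with WRKY22 it made 2 called of 6 measured WRKY factors. COR27 (AT5G42900), a cold- and clock-regulated gene, rose by 0.55 ± 0.09 against 3.02 in Col, and the difference of -2.47 passed the test (adjusted p = 0.00046). In Ws it lay at 0.08, and that difference of 0.47 did not (adjusted p = 0.38). Without salt COR27 averaged 10.01 in Col(gl) and 3.78 in both Col and Ws, below the lower quartile of the Col and Ws arrays. The 3.02 in Col is thus a lower bound. In Ws the salted signal, 3.58 and 4.15, lay below the lower quartile too, so it may be background. ATG8B (AT4G04620), a ubiquitin-like protein of autophagosomes, rose by 0.51 ± 0.10 as the 1 called of 10 autophagy genes. GSTU27 (AT3G43800) fell by 0.47 on the log2 scale as the 1 called of 14 glutathione S-transferases. The calls of ATG8B and GSTU27 were lost when any single array was left out.

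Several lists held no called gene: 22 cytochromes P450, 11 auxin genes, 6 tubulins, 5 genes of sugar starvation, 4 of senescence, 4 markers of guard cells and vasculature, 4 of trichome development and 3 reference genes. At an unadjusted p under 0.05 limma gave 8 of the cytochromes P450, 3 of the auxin genes, 1 of the tubulins, all 5 of sugar starvation, 2 of senescence, 1 of guard cells and vasculature and 0 of the last 2 lists named, where 24.5% of all probe sets had such a p. With an intensity trend and robust prior, which called 14.8% of all probe sets, all 5 genes of sugar starvation and 1 of guard cells and vasculature were called higher, and 2 cytochromes P450 and 1 tubulin lower. Medians of these lists lay between -0.17 and 0.38. Sugar starvation had the highest, with all 5 members between 0.31 and 0.52, led by IVD of branched-chain amino acid breakdown (0.52 ± 0.12, adjusted p = 0.062). TRY (AT5G53200), a trichome repressor, lay at -0.06 ± 0.14, against -2.10 in Col and -1.40 in Ws, and its response differed from both (adjusted p = 0.00052 and 0.0097). TUB1 (AT1G75780), a beta-tubulin, lay at -0.26 ± 0.12 against 3.04 in Col, with a difference of -3.30 (adjusted p = 0.0043). Its response was 1.25 in Ws, and that difference passed only without the 2 arrays that stand apart (-1.51 and adjusted p = 0.16 with all, -0.98 and adjusted p = 0.038 without).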

How the data were processed

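Each leaf RNA sample was hybridised to its own Affymetrix array. The authors deposited log2 RMA signals, 1 value per probe set and array. The submitters' processing notes name GCOS and RMA with no version or setting, and the log2 scale was read from the values. Of 22810 probe sets, none with a missing value, 64 controls were set aside. A single gene was named for 13513 of the 22746 others, several for 503 and none for 8730. Of the 13513, 13436 were matched to RefSeq (TAIR10.1), and only these are named. For genes with several probe sets, the brightest over the 4 arrays stands in list counts.

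The 4 Col(gl) arrays were fitted alone with limma 3.58.1 in R 4.3.3 (lmFit, eBayes, 2 residual degrees of freedom, prior 4.06). Tests were two-sided, with Benjamini-Hochberg adjustment across the 22746 probe sets. Differences of responses came from all 12 arrays. Errors are standard errors of the fit. The number of arrays limits the precision. Alternatives changed the arrays in the fit, the replicate block, the filter, the normalization and the variance prior, and left out each array in turn. In a check on simulated data, changes were recovered as the text gives, with 6 false calls. Figures were drawn with matplotlib 3.10.9.

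The members and the 45 gene lists were chosen with earlier results of these data known. The genes named are the 15 largest called differences in each direction among probe sets of a single gene whose groups do not overlap, up to 5 called members of each list, up to 2 of a list with none called, the cell type markers, and up to 5 in each direction of each difference of responses. Other genes named, such as members not called beside a called one, were chosen after their values were seen. Lists with no measured member, among them ion transport, osmolyte synthesis and aquaporins, are not described. Replicate numbers carry no stated pairing. Deviations of arrays with the same number in unsalted and salted Col(gl) had a correlation of -0.352, so the numbers were not taken as pairs.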

Additional observations from a re-analysis of the deposited data

Results flagged for a closer look

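The salt response of the following genes differed between genotypes in a test of the difference itself (limma on all 12 arrays, adjusted p under 0.05). Genes could be listed only if they were also called in the Col(gl) response, with up to 5 in each direction, so they are not the largest differences of all genes. EXLA1, whose response in Col(gl) was -0.36 and not called, differed by -5.41 from Col and by -4.84 from Ws. Differences are the Col(gl) response minus the other response on the log2 scale. Lower than in Col were AT4G29780 (-6.22), AT2G27080 (-5.36), EXO (-5.25), STZ (-5.22) and AT1G76600 (-5.14). In each of these 5 the signal fell in Col(gl) and was higher with salt in Col. Higher than in Col were AT1G20070 (4.66), AT1G30250 (3.06), AT1G64380 (2.64), AT1G33260 (2.58) and AT2G41250 (2.46). In these 5 the signal rose in Col(gl) and was lower with salt in Col. AT1G30250 rose from 8.44 and 8.48 to 8.96 and 8.90, and its call in Col(gl) was lost when any single array was left out. The calls of AT1G33260, AT2G41250, AT1G64380, STZ and AT4G29780 in Col(gl) were each lost in some of those fits.

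Against Ws, lower responses were found for BSMT1 (-4.05), AT3G02480 (-3.89), CHI (-3.84), AT1G05340 (-3.72) and EXO (-3.70). AT3G02480 and AT1G05340 rose in both genotypes, by 3.26 and 1.13 in Col(gl). The call of AT1G05340 in Col(gl) was lost in some of the fits with an array left out. BSMT1 and AT3G02480 start at or below the lower quartile without salt in Col(gl). In unsalted Ws both of them and AT1G05340 (4.15 and 3.99) lay below the lower quartile of the arrays (4.33 and 4.31). The differences of BSMT1, AT3G02480 and AT1G05340 are therefore not exact. Higher responses than in Ws were found for AT1G47400 (4.47), rpl16 (4.24), AT5G05250 (3.43), rps2 (3.28) and AT1G20070 (2.91). All of these differences passed the test without the 2 salted arrays of Ws and Col that stand apart, with the same sign.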

How the results depend on the processing

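The 1338 calls became 339 with the spread of all 12 arrays, 330 with that of the 8 arrays of Col(gl) and Col, 3375 with an intensity trend and robust prior, and 201 when a 2-fold change was also required. With the replicate block the count was 786, and 12 of the 64 named calls were lost. Leaving out single Col(gl) arrays gave 123 to 1564. Crossed replicate numbers as pairs, chosen after seeing the data, gave 3027. Differences against Col ranged from 2087 to 4738 calls and against Ws from 592 to 3551 when single arrays were left out, and against Ws the count was 2591 without both salted arrays numbered 1. No named gene that was called reversed its sign under the alternatives tried. Causes were not tested. The 2 arrays per group and a signal near the lower quartile limit what could be detected.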

Other observations

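Mitochondrial transcripts, grouped after their values were seen by the platform's gene names, gave 4 called of 23 probe sets, all higher with salt in Col(gl), and a median difference of 0.23, where 3.4% of all probe sets rose. The cytochrome c maturation gene ccb382 read 5.94 and 6.31 without salt and 7.38 and 7.44 with salt (1.28 ± 0.14, adjusted p = 0.0087). The respiratory complex I subunit nad4 read 7.17 and 6.94 without salt and 8.03 and 8.19 with salt (1.06 ± 0.12). The cytochrome oxidase subunit cox2 rose by 0.76 ± 0.10, and nad9 of complex I by 0.61 ± 0.09. For these 4 genes the difference of responses did not pass the test against Col or Ws with all 12 arrays, with adjusted p-values between 0.11 and 0.83. Their values without the 2 arrays that stand apart are not given here. The median difference of responses over the 23 probe sets was 0.28 against Col and 0.39 against Ws with all arrays. Without the 2 arrays it was 0.16 and 0.15. The count of 4 became 0 without either salted Col(gl) array and with the spread of all 12 arrays.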
